A study of Mus musculus with 6 samples.

Results

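The genes described here are the amyloid precursor protein (APP) family and the secretases that cut it: App, Aplp1, Aplp2, Bace1, Bace2, Adam10, Ncstn, Psenen, Aph1a and Psen2. They were chosen by symbol, through probe sets that the platform annotation ties to 1 symbol, and where a gene had several, its brightest probe set on average was used. All 10 were measured, among 22180 genes in all. Expression was measured with whole-transcript mouse arrays in total RNA of the outer eye wall, taken as retinal pigment epithelium (RPE) with choroid and sclera, from mice aged 12 months. The 3 arrays of the 5XFAD group came from mice heterozygous for the transgene, and the 3 arrays of the wild-type (WT) group came from littermates without it. No mouse received an experimental treatment, per the labels. 5XFAD mice carry human APP with familial Alzheimer's disease mutations, driven by the Thy1 promoter, which is active mainly in neurons. The labels do not say how many animals went into a sample or that samples came from separate animals, so p-values cover only the spread among the arrays of a group, part or all of which may be technical. The number of arrays limits the precision.

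APP is a membrane protein that is cut in steps. An alpha-secretase such as ADAM10 cuts within the amyloid-beta stretch and sheds the large outer domain, whereas the beta-secretase BACE1 cuts at the start of that stretch. Gamma-secretase, a complex of a presenilin, nicastrin, APH1 and PEN2, then cuts the remaining stub within the membrane, and amyloid-beta is released where BACE1 made the first cut. APLP1 and APLP2 are relatives of APP without the amyloid-beta sequence and are processed by the same enzymes. In pigment cells, BACE2 cuts PMEL, the protein that forms the fibrils of the melanosome. Mouse probe sets need not bind the human transgene transcripts, so the App signal is that of the mouse gene plus whatever part of the human transcript cross-hybridised.

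RefSeq start regions were matched for 8 of the 10 genes, all but Bace1 and Bace2. The 250 bases before the annotated start (GRCm38.p6) are shown for the 3 family members. Aplp1 had the smallest p-value of the 10 genes in limma, which did not pass over all genes, and App and Aplp2 are its relatives. Capitals mark the GC box GGGCGG (searched on both strands), the letters bound by factors of the Sp1 family. All are printed 5′ to 3′ on the gene's own strand, which is the minus strand at chr16:85173708-85173957 (App), chr7:30445583-30445832 (Aplp1) and chr9:31211849-31212098 (Aplp2).
App: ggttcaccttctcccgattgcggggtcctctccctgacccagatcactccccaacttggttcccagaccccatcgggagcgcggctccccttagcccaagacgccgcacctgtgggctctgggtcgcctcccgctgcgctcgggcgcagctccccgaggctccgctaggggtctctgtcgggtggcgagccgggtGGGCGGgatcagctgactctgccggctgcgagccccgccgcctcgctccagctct
Aplp1: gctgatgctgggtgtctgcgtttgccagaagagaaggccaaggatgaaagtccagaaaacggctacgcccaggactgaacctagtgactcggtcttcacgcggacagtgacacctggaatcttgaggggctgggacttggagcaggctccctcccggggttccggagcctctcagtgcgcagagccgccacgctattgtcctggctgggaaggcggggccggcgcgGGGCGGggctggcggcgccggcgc
Aplp2: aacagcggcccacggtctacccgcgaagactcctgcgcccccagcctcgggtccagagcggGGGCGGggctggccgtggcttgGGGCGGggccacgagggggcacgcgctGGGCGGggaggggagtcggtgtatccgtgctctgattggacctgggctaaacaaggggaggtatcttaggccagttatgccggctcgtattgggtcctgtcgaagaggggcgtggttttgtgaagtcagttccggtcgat

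The App and Aplp1 windows each held 1 GC box and the Aplp2 window held 3. A GC box was found in 6 of the 10 start windows of these genes, and in 32.8% of the 32841 start windows of the same length. The 6 windows belonged to 6 of the 8 genes, the other 3 being Adam10, Aph1a and Psen2. The base composition of the printed windows was 70.8% G or C for App, 66.0% for Aplp1 and 66.4% for Aplp2, against a median of 52.4% over all windows. The letters TAATCC (either strand), to which the eye factors OTX2 and CRX bind, were in 0 of the 10 windows of these genes and in 6.25% of all windows. The E-box CACGTG, which is its own reverse complement, was in 1 window of Adam10 and in 1 of Psen2, and in 6.02% of all windows.

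The tissue carried the markers of its label. Of the 12 RPE markers, 11 ran from percentile 93.96 (Slc16a8) to percentile 99.982 (Ttr) of all genes by mean signal, and Best1 lay at percentile 33.7. The lowest of the 10 fibroblast and sclera markers, Col3a1, was at percentile 90.05 and the lowest of the 10 endothelial markers, Esam, at percentile 69.9. Median log2 intensity per array ran from 5.65 to 5.68 in 5XFAD and from 5.59 to 5.71 in WT, with the lowest in WT replicate 2. Over all genes, 5 passed a Benjamini-Hochberg adjusted p of 0.05 in limma (0.0225%), and the median difference between 5XFAD and WT was -0.01 on the log2 scale.

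No APP family or secretase gene changed past the adjusted threshold. In limma, 0 of 10 passed (lowest Benjamini-Hochberg adjusted p = 0.53, for Aplp1), against 0.0225% of all genes. At an unadjusted p under 0.05 there was 1 of 10, Aplp1, which was lower in 5XFAD, where 3.39% of all genes were lower and 6.28% differed either way. The 3 arrays of each group did not overlap in 2 of 10, Aplp1 and Adam10, both lower in 5XFAD, where 6.62% of all genes were non-overlapping and lower, 4.72% non-overlapping and higher, and 11.3% either way. Differences were positive in 6 genes and negative in 4, with a median of 0.04 (log2), and the median absolute difference was 0.12, beside 0.09 over all genes.

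**Figure D1:**
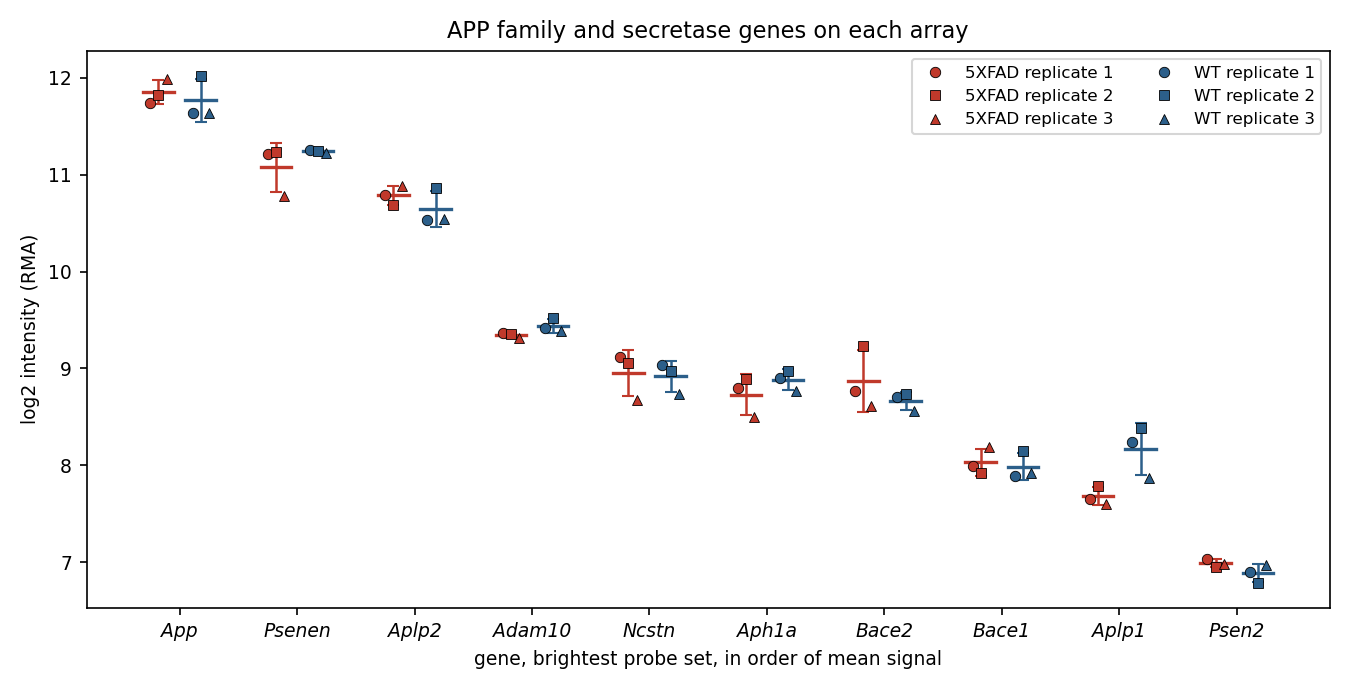
Log2 intensity (RMA, y axis) of the 10 genes on each array, ordered along the x axis by mean signal, with 5XFAD arrays in red left of WT arrays in blue; symbols are replicates, lines the group means and bars the SD (n = 3). App is the brightest at 11.85 in 5XFAD and 11.77 in WT, Psen2 the dimmest, and Aplp1 is the gene with a visible gap between the groups.

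By mean signal over the 6 arrays App stood at percentile 99.8 of all genes, Psenen at 99.5 and Aplp2 at 99.3. Adam10 was at percentile 96.7, Ncstn at 94.5, Aph1a at 93.6, Bace2 at 93.4, Bace1 at 85.3, Aplp1 at 84.0 and Psen2 at 66.7. Brightness depends on the probes as well as on the transcript, so that this is an order of signals and not of transcript numbers. Some neighbours in the order were not apart: Ncstn and Aph1a, Aph1a and Bace2, and Bace1 and Aplp1 kept their order on 4 of 6 arrays, and Psenen and Aplp2 on 5 of 6. The other 5 neighbouring pairs kept theirs on all 6.

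App, which encodes the precursor of amyloid-beta, had a log2 intensity of 11.74, 11.82 and 11.99 in the 5XFAD arrays and of 11.64, 12.02 and 11.64 in the WT arrays. The groups overlapped, since the highest value of all was that of WT replicate 2. The difference was 0.09 ± 0.13 (log2, ± SE, limma, Benjamini-Hochberg adjusted p = 0.96), and its 95% interval of -0.21 to 0.38 spans levels from 0.864 to 1.30 times the WT level. It was 0.21 without WT replicate 2 and 0.02 without 5XFAD replicate 3, WT replicate 1 or WT replicate 3. Thy1, whose promoter drives the transgenes, had 7.51, 7.79 and 7.60 in 5XFAD against 7.45, 7.15 and 7.46 in WT (log2 intensity). All 3 5XFAD values were higher than the WT values, by 0.28 ± 0.12, without passing (limma, Benjamini-Hochberg adjusted p = 0.80). Such non-overlap, higher in 5XFAD, was found in 4.72% of all genes. Any bearing of the Thy1 signal on the transgenes was not tested.

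Aplp1, the relative of APP that is expressed mainly in neurons, was the gene that differed most. Its log2 intensity was 7.66, 7.78 and 7.60 in the 5XFAD arrays and 8.25, 8.39 and 7.87 in the WT arrays. Every 5XFAD array lay below every WT array, with WT replicate 3 the closest to the 5XFAD values. The means were 7.68 ± 0.09 in 5XFAD and 8.17 ± 0.27 in WT (SD, n = 3 each), a difference of -0.49 ± 0.14 (log2, ± SE). This is 0.714 times the WT level, with a 95% interval of 0.573 to 0.888, at an unadjusted p of 0.0067 in limma, which did not pass over all genes (Benjamini-Hochberg adjusted p = 0.53). The difference stood at percentile 0.546 of all genes' differences, where percentile 5 is at -0.25. Without WT replicate 2 it was -0.38 and without WT replicate 3 it was -0.63. In tissue RNA, fewer cells of a type and less RNA per cell cannot be told apart.

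Marker lists of several cell types were set beside Aplp1. The mean of the 12 RPE markers was 10.43, 10.37 and 10.59 in the 5XFAD arrays and 10.76, 10.92 and 10.87 in the WT arrays, also without overlap, and 9 of the 12 were lower at an unadjusted p under 0.05 in limma (3.39% of all genes were). The mean of the 12 inner retina and neuron markers was 5.84, 5.89 and 5.64 in 5XFAD and 5.78, 5.53 and 5.86 in WT, and the groups overlapped. Of those 12 markers 0 had an unadjusted p under 0.05 in limma and 6 lay below the median signal of all genes.
The mean of the 10 measured rod and cone markers overlapped as well, from 5.45 to 6.35 in 5XFAD and from 5.58 to 6.44 in WT. The mean of the 9 measured surface epithelium markers was higher on every 5XFAD array, at 6.01 to 6.72 in 5XFAD and 4.81 to 4.98 in WT. Singly, 7 of the 9 were higher without overlap, beside 4.72% of all genes. The 12 skeletal muscle markers had list means of 6.26 to 7.44 in 5XFAD and 5.74 to 7.06 in WT, with overlap. The mean of the 8 lens markers was also lower without overlap, at 5.52 to 5.628 in 5XFAD and 5.630 to 5.71 in WT. That of the 8 melanocyte and pigment markers was higher by 0.07 in 5XFAD, with overlap. Among the RPE markers Best1 was higher by 0.26 in 5XFAD, and the other 11 were lower. The part of these cell types in the Aplp1 difference was not tested.

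**Figure D2:**
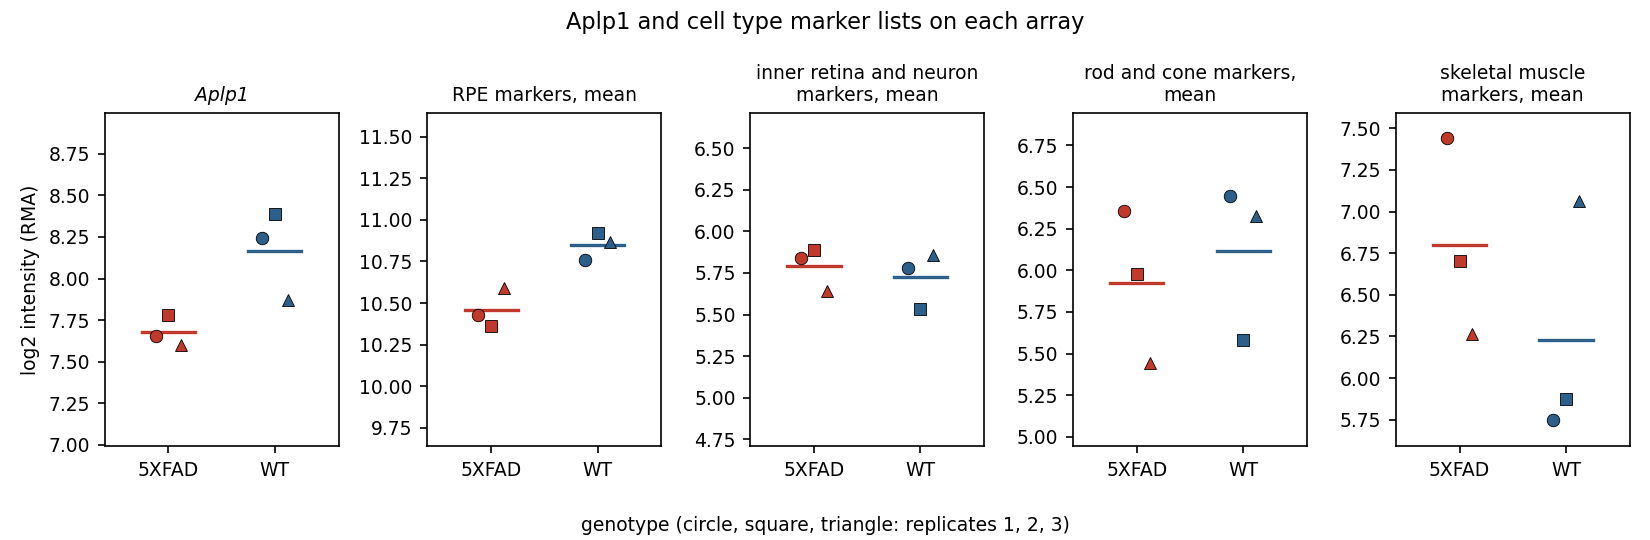
Log2 intensity (RMA, y axis, each panel spanning the same range of 2 units) of Aplp1 and the mean of 4 marker lists on each array, 5XFAD left of WT (x axis); symbols are replicates 1, 2 and 3 and lines the group means. Aplp1 and the mean of the RPE markers are lower on all 3 5XFAD arrays, while the neuron, rod and cone and muscle lists overlap between the groups. Among cell type lists not shown, the lens mean was also lower without overlap. The means of surface epithelium and of pericytes and smooth muscle were higher without overlap.

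Aplp2, the widely expressed relative of APP, was at 10.79, 10.68 and 10.88 in 5XFAD and 10.53, 10.86 and 10.54 in WT (log2 intensity). WT replicate 2 was again the high WT array and the groups overlapped. The difference was 0.14 ± 0.12 (log2, ± SE, limma, Benjamini-Hochberg adjusted p = 0.93), and it was 0.25 without WT replicate 2, 0.08 without WT replicate 1 and 0.09 without 5XFAD replicate 3 or WT replicate 3. App and Aplp2 kept nearly the same distance on every array but 5XFAD replicate 1, where it was smaller. App minus Aplp2 was 0.95, 1.14 and 1.11 in 5XFAD and 1.11, 1.16 and 1.098 in WT (log2 difference between the probe sets within an array), and the group means differed by -0.06 (exact two-sided permutation p = 0.5, Benjamini-Hochberg 0.67 over the 4 such differences examined). With 3 against 3 arrays the smallest p this test can give is 0.1.

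Adam10, the main alpha-secretase, showed little spread. It was at 9.37, 9.36 and 9.31 in 5XFAD and 9.41, 9.52 and 9.38 in WT (log2 intensity). The groups did not overlap, although 5XFAD replicate 1 and WT replicate 3 nearly met, and the difference was -0.09 ± 0.10 (log2, ± SE, limma, Benjamini-Hochberg adjusted p = 0.94). The 95% interval of that difference, 0.809 to 1.09 times the WT level, includes no change.

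The beta-secretase Bace1 was at 7.99, 7.92 and 8.18 in 5XFAD and 7.89, 8.14 and 7.93 in WT (log2 intensity). The values interleaved, and the difference was 0.04 ± 0.12 (log2, ± SE, limma, Benjamini-Hochberg adjusted p = 0.97). A dimmer probe set of Bace1 averaged 7.50 ± 0.07 in 5XFAD and 7.61 ± 0.13 in WT (SD, n = 3 each), with a difference of the opposite sign (-0.11 ± 0.11) that did not pass either (limma over all probe sets, Benjamini-Hochberg adjusted p = 0.97). A further probe set is annotated to both Bace1 and its neighbour Rnf214 and was not used.

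Bace2, the relative of BACE1 with a part in melanosome formation, was at 8.76, 9.23 and 8.62 in 5XFAD and 8.70, 8.73 and 8.56 in WT (log2 intensity). A single array, 5XFAD replicate 2, lay above all others. The difference of 0.20 ± 0.16 (log2, ± SE, limma, Benjamini-Hochberg adjusted p = 0.92) was 0.02 without that array. Pmel, its substrate in pigment cells, differed by 0.24 (log2, limma, Benjamini-Hochberg adjusted p = 0.85), and the 8 pigment markers had a mean that overlapped, at 10.74 to 11.04 in 5XFAD and 10.71 to 10.93 in WT. That list was also highest on 5XFAD replicate 2.

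The signals of the cutting enzymes were also compared within each array. Adam10 minus Bace1 was 1.38, 1.44 and 1.13 in 5XFAD and 1.52, 1.38 and 1.46 in WT (log2 difference between probe sets within an array). The groups overlapped and differed by -0.14, or -0.20 to -0.04 with single arrays left out (exact two-sided permutation p = 0.3, Benjamini-Hochberg 0.67). Bace1 minus Bace2 averaged -0.84 ± 0.44 in 5XFAD and -0.68 ± 0.12 in WT (SD, n = 3 each; exact two-sided permutation p = 0.8, Benjamini-Hochberg 0.80).

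**Figure D3:**
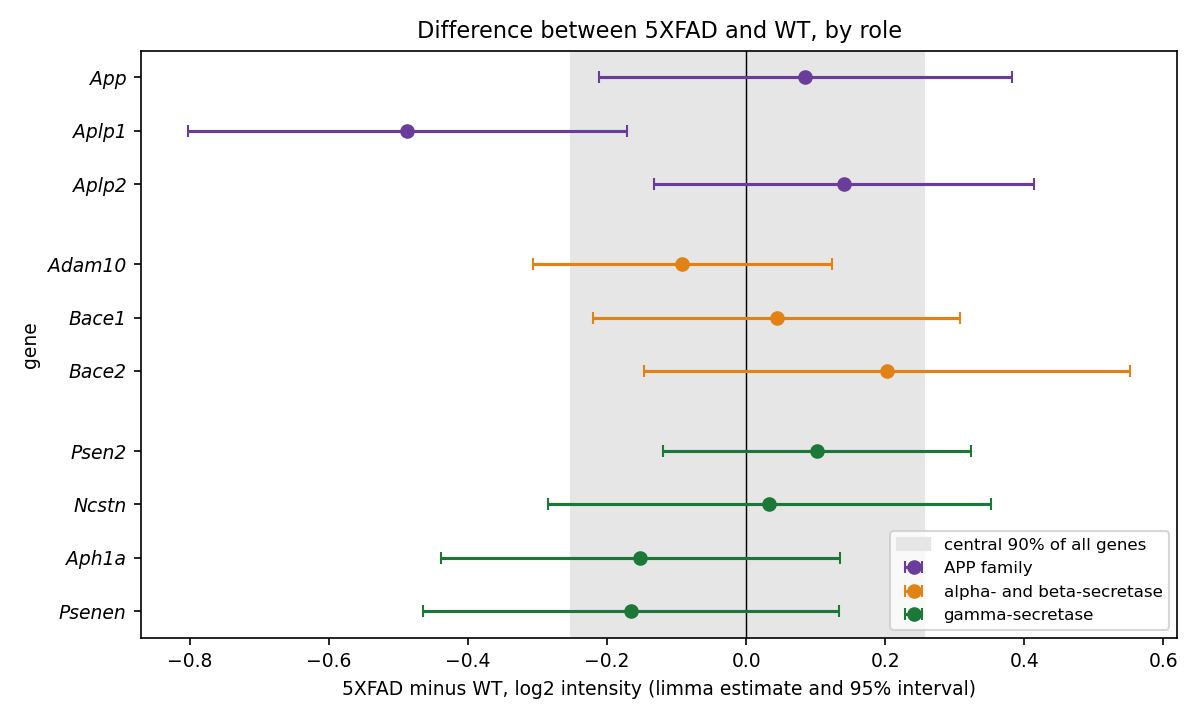
Difference between 5XFAD and WT in log2 intensity (x axis, 5XFAD minus WT) for each gene (y axis), coloured by role, with the limma estimate as a point and its 95% interval as a bar; the grey band holds the central 90% of all 22180 genes, from -0.25 to 0.26. The Aplp1 estimate of -0.49 lies outside the band and its interval excludes 0, while the intervals of the other 9 genes include 0.

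Psen2, which encodes a catalytic subunit of gamma-secretase, was at 7.03, 6.95 and 6.99 in 5XFAD and 6.90, 6.79 and 6.97 in WT (log2 intensity). The 5XFAD values sat at the upper end with a narrow overlap, and the difference was 0.10 ± 0.10 (log2, ± SE, limma, Benjamini-Hochberg adjusted p = 0.93). Ncstn, which encodes nicastrin, the large outer subunit of the complex, was at 9.11, 9.06 and 8.68 in 5XFAD and 9.04, 8.98 and 8.74 in WT (log2 intensity). Replicate 3 was the low array in both groups, and the difference was 0.03 ± 0.14 (log2, ± SE, limma, Benjamini-Hochberg adjusted p = 0.98). Psen2 minus Ncstn averaged -1.96 ± 0.23 in 5XFAD and -2.03 ± 0.23 in WT (log2 difference within an array, SD, n = 3 each; exact two-sided permutation p = 0.5, Benjamini-Hochberg 0.67).

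Aph1a, which encodes the APH1 scaffold subunit, was at 8.80, 8.89 and 8.50 in 5XFAD and 8.90, 8.98 and 8.77 in WT (log2 intensity). The groups overlapped, with 5XFAD replicate 3 lowest, and the difference was -0.15 ± 0.13 (log2, ± SE, limma, Benjamini-Hochberg adjusted p = 0.93). Without that array it was -0.03. A dimmer Aph1a probe set gave -0.14 ± 0.15. A bright probe set annotated to both Aph1a and its neighbour Car14, a carbonic anhydrase gene, was at 10.77, 10.82 and 10.84 in 5XFAD and 11.16, 11.25 and 11.19 in WT (log2 intensity). Its groups did not overlap (-0.39 ± 0.09, limma over all probe sets, unadjusted p = 0.0029, Benjamini-Hochberg adjusted p = 0.68), and which of these genes it measures cannot be told apart here, so it was not counted as Aph1a.

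Psenen, which encodes PEN2, the small subunit that completes gamma-secretase, was at 11.21, 11.23 and 10.79 in 5XFAD and 11.25, 11.25 and 11.23 in WT (log2 intensity). A single array, 5XFAD replicate 3, was low, and the WT arrays were close together. The difference was -0.17 ± 0.13 (log2, ± SE, limma, Benjamini-Hochberg adjusted p = 0.93), and it was -0.02 without that array. The second Psenen probe set was low on the same array, at 10.09 in 5XFAD replicate 3 and between 10.54 and 10.66 on the other 5. Aph1a and Ncstn were also at their lowest on 5XFAD replicate 3.

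Other gamma-secretase and ADAM genes that were measured did not pass either. Aph1b, which encodes another APH1 scaffold, averaged 6.95 ± 0.14 in 5XFAD and 6.95 ± 0.11 in WT, and Aph1c, its close copy in the mouse, averaged 9.40 ± 0.08 in 5XFAD and 9.13 ± 0.34 in WT (log2 intensity, SD, n = 3 each). Near-identical copies can share signal, so the pair is uncertain. Adam17, the sheddase that can also act as an alpha-secretase, differed by 0.13 ± 0.11 (log2, ± SE, limma, Benjamini-Hochberg adjusted p = 0.93). Of the 6 ADAM genes listed beside Adam10, 4 had a positive difference and 0 passed (0 also at an unadjusted p under 0.05, limma), with Adam8 at 0.28, Adam19 at 0.17 and Adam15 at 0.14 (log2).

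Genes that route or restrain the secretases gave 4 of 23 measured at an unadjusted p under 0.05, 3 lower and 1 higher in 5XFAD, and 0 past the adjusted threshold (limma), where 3.39% of all genes were lower and 2.89% higher at that unadjusted p. Sorl1, a sorting receptor that steers APP away from the endosome, was at 8.04, 7.85 and 8.12 in 5XFAD and 8.26, 8.50 and 8.49 in WT (log2 intensity). Rtn1, a reticulon of the endoplasmic reticulum, was at 7.41, 7.23 and 7.64 in 5XFAD and 7.76, 8.14 and 7.79 in WT (log2 intensity). In both genes every 5XFAD array was below every WT array, by -0.41 ± 0.12 for Sorl1 and -0.47 ± 0.14 for Rtn1 (log2, ± SE, limma, Benjamini-Hochberg adjusted p = 0.53 and 0.61). The third lower gene, outside the naming rule and chosen after its values were seen, was Rtn3, a reticulon that binds BACE1 and lowers its activity, at -0.35 (log2, limma, Benjamini-Hochberg adjusted p = 0.64). Gsap, named for activating gamma-secretase, averaged 7.03 ± 0.11 in 5XFAD and 6.70 ± 0.09 in WT (log2 intensity, SD, n = 3 each; limma, Benjamini-Hochberg adjusted p = 0.64). The list's median difference was 0.01, against -0.01 over all genes. Its groups did not overlap in 4 of 23 genes, 3 lower and 1 higher, beside 6.62% and 4.72% of all genes.

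Of 14 measured adaptors that bind the inner tail of APP, 0 passed and 0 had an unadjusted p under 0.05 in limma, where 6.28% of all genes had one. Their differences ran from -0.11 to 0.22 (log2), with a median of 0.04. The 3 of smallest p were Apbb3, a relative of the adaptor FE65, at 0.22, Kat5, which encodes the acetyltransferase TIP60, at 0.11, and Apba2, which encodes a MINT adaptor, at 0.13.

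Substrates of the secretases were not called over all genes either. Among 17 measured BACE substrates 0 passed and 2 had an unadjusted p under 0.05 in limma (beside 6.28% of all genes). Il1r2, a decoy receptor for interleukin-1, averaged 4.62 ± 0.06 in 5XFAD and 4.17 ± 0.17 in WT, near the dim end at percentile 20.3, and Cltrn, which encodes collectrin, a BACE2 substrate in the pancreas, averaged 9.79 ± 0.14 in 5XFAD and 10.21 ± 0.17 in WT (log2 intensity, SD, n = 3 each). Their differences were 0.45 and -0.42 (limma, Benjamini-Hochberg adjusted p = 0.45 and 0.56). The adhesion gene Chl1 differed by 0.33 (adjusted p = 0.82, limma with Benjamini-Hochberg).

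Among 23 ADAM10 and gamma-secretase substrates and Notch targets, 0 passed and 3 had an unadjusted p under 0.05 in limma, all higher in 5XFAD, where 2.89% of all genes were higher. Cd44, the hyaluronan receptor, was at 7.22, 7.08 and 7.17 in 5XFAD and 6.86, 6.85 and 6.70 in WT (log2 intensity). Dll1, a Notch ligand, was at 6.55, 6.35 and 6.37 in 5XFAD and 6.31, 5.94 and 5.66 in WT, and Hes1, a repressor gene switched on by Notch, was at 8.31, 8.12 and 8.07 in 5XFAD and 7.97, 7.93 and 7.60 in WT (log2 intensity). The groups did not overlap in these genes, with differences of 0.36, 0.46 and 0.33 in that order (limma, Benjamini-Hochberg adjusted p = 0.53, 0.68 and 0.74). In the list 5 of 23 genes did not overlap, 4 higher and 1 lower, beside 4.72% and 6.62% of all genes. Without WT replicate 3 the difference was 0.30 for Dll1 and 0.21 for Hes1, and with the mean of its probe sets that of Dll1 was 0.25. The list's median difference was 0.002, and its members ran from -0.24 to 0.46 (log2), with 12 positive and 11 negative. Outside the naming rule, the Notch targets Nrarp, Hes5 and Hey2 were at -0.24, -0.10 and -0.01, and Hey1 and Heyl at 0.17 and 0.19. Notch1, Notch2, Notch3 and Notch4 were at -0.22, 0.002, -0.06 and -0.20 in that order (log2). Marker means of surface epithelium and of pericytes and smooth muscle were higher in 5XFAD by 1.49 and 0.28, both without overlap (log2). The skeletal muscle and macrophage lists were higher on average by 0.57 and 0.16, with overlap, and the part of these cell types in the 3 genes was not tested.

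**Figure D4:**
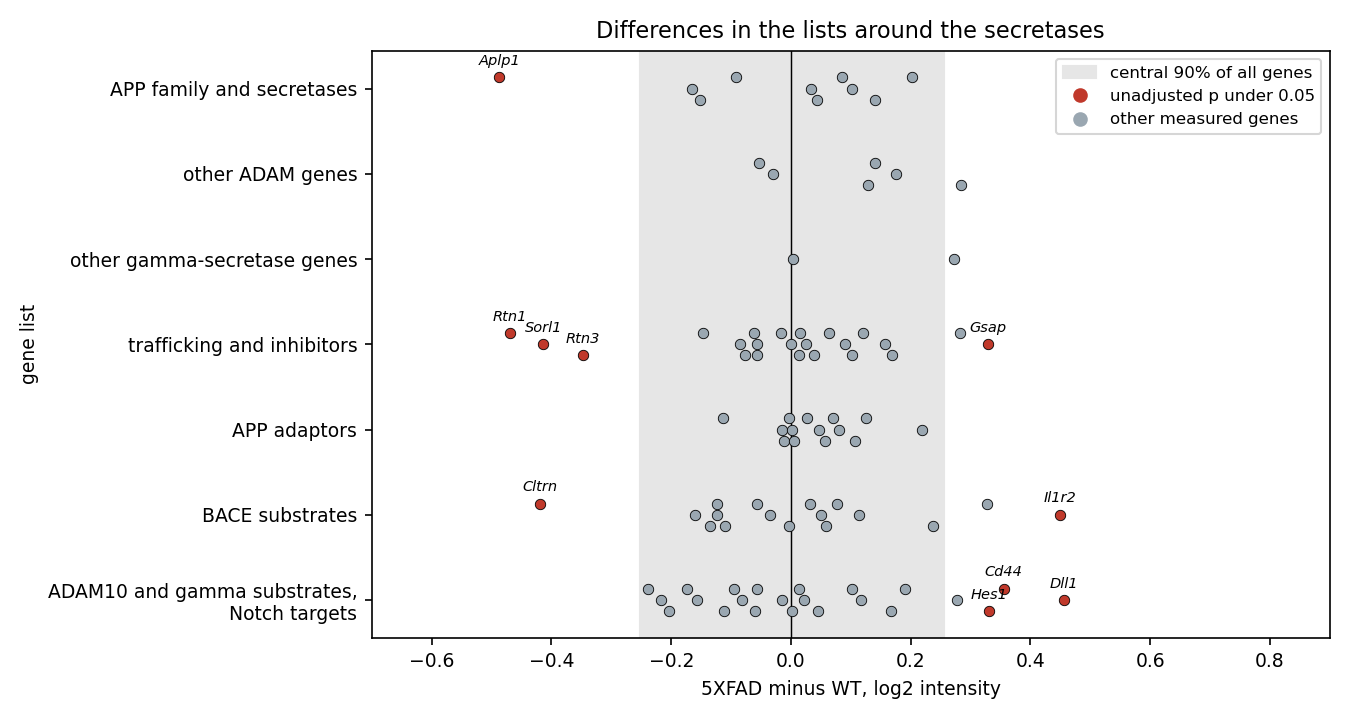
Difference between 5XFAD and WT in log2 intensity (x axis) for every measured gene of the secretase genes and of the 6 lists around them (y axis), in red with its name where the unadjusted limma p was under 0.05; the grey band holds the central 90% of all genes. Aplp1, Rtn1, Sorl1, Rtn3 and Cltrn lie to the left and Gsap, Il1r2, Cd44, Dll1 and Hes1 to the right, and none of these passed the adjusted threshold.

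The 5 genes whose profile over the 6 arrays was most like that of App were Ttll7, Inpp5f, Nifk, Zfp799 and Tmem217. Likeness was the root-mean-square difference between mean-centred log2 profiles, which ran from 0.03 for Ttll7 to 0.04 for Tmem217 over 6 arrays. All 5, like App, were highest on 5XFAD replicate 3 and WT replicate 2 within their groups. They were picked from 22180 genes by this likeness, so the shared pattern follows from the choice. A link between these genes and App was not tested. All 5 were dimmer than App, the brightest being Nifk at 7.13 to 7.50 (log2 intensity).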

How the data were processed

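The deposited values are log2 intensities per probe set that the authors normalized with RMA in Affymetrix Expression Console 1.1, per the submitters' processing notes. This method removes background, matches the arrays' distributions and combines probes, and dim genes come out with compressed differences. Genome build and filters were not given in the sources used here. Of 33793 probe sets, 23521 carried 1 symbol in the platform annotation, and taking the brightest per gene gave 22180 genes. Groups came from the sample titles.

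5XFAD was compared with WT in limma 3.58.1 (R 4.3.3; two-sided, without covariates, with 4 residual degrees of freedom and a prior worth 5.23). P-values were adjusted over all genes by Benjamini-Hochberg, with 0.05 as threshold. The steps were tested on simulated data. From each list the 3 genes of smallest p were named, beside all 10 genes, Adam17, Aph1b, Aph1c, Thy1 and the 5 genes most like App. Genes and lists were chosen with earlier results of these data known. As alternatives, the replicate number was added as a block, dim genes were filtered, and other normalizations, priors, array weights, probe set rules and a looser threshold were tried, as was leaving out each array.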

Additional observations from a re-analysis of the deposited data

How the results depend on the processing

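Under all 16 alternatives 0 of the 10 genes passed, and under the 15 that refit the differences Aplp1 alone had an unadjusted p under 0.05. Its difference ran from -0.63 to -0.38 and its limma Benjamini-Hochberg adjusted p from 0.36 to 0.94. Of 150 refitted differences of these genes, 144 kept their direction and 6 changed sign, in Bace1 and Ncstn, both near 0. Many of the 144 could not change. The replicate block, the filters of dim genes, the other prior and testing every probe set on its own leave each difference as it was. These settings alter only its error and p-values. The mean of probe sets likewise leaves the 7 genes with 1 such probe set as they were. Bace1 was -0.0331 with the mean of its probe sets and ran from -0.0330 to 0.123 with single arrays left out, and Ncstn from -0.0565 to 0.169. Single arrays also moved Adam10 to -0.05 and Psen2 to 0.05 (without WT replicate 2), Bace2 to 0.33 (without 5XFAD replicate 3) and Aph1a to -0.23 (without 5XFAD replicate 2). Aph1b was -0.0122 after quantile normalization, -0.000664 after median centring and -0.0227 with array weights, and ran from -0.0748 to 0.0659 with single arrays left out. Adam19 was -0.00119 with the mean of its probe sets. The difference of App minus Aplp2 ran from -0.0929 to 0.000982, of Bace1 minus Bace2 from -0.362 to 0.0771 and of Psen2 minus Ncstn from -0.0648 to 0.201 with single arrays left out. Over all genes the count past the threshold, 5, was 8 without the dimmest 30% of genes, 9 after median centring, 9 with a trended and robust prior, 8 with array weights and 16 at an adjusted p of 0.1. It ran from 3 (without WT replicate 3) to 19 (without WT replicate 2). With the replicate block the count was 6 and the adjusted p of Aplp1 was 0.39 (limma, Benjamini-Hochberg). Same-numbered arrays deviated together with correlations of -0.06, -0.05 and 0.13, so the numbers were not taken as pairs. The median difference of the 10 genes ran from -0.02 to 0.06. With 3 arrays a group the 95% intervals of App and Bace1 leave room for changes of up to 1.30-fold and 1.24-fold.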
